A study of Mus musculus with 9 samples.

Results

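The 4 miRNAs described here are the strands of 2 hairpin families, miR-9 with its partner miR-9*, and miR-124 with its partner miR-124*. They were taken by name, as the entries called exactly mmu-miR-9, mmu-miR-9*, mmu-miR-124 and mmu-miR-124*, which are 4 of the 650 miRNAs on the array and were all found on every one of the 9 arrays. The samples are primary hippocampal neurons of C57BL/6 mice, prepared on postnatal day 1 and grown for 10 days in vitro. Neurons were left untreated (control), were treated with 20 µM N-methyl-D-aspartate (NMDA) for 4 h, or were treated with 50 µM bicuculline for 4 h, with 3 arrays in each group. Bicuculline blocks GABA-A receptors and so raises synaptic activity through action potential bursting, whereas bath-applied NMDA reaches synaptic and extrasynaptic NMDA receptors, and the study asked which miRNAs follow the toxic extrasynaptic signal. The labels give no transgene or mutant allele for any group, and such primary cultures can hold other cells besides neurons.

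A miRNA gene is transcribed as a long primary transcript, Drosha cuts out the hairpin, and Dicer trims it to a duplex of both arms. One arm is usually loaded into Argonaute and kept, while the other, marked with a star in the older naming, is mostly lost. miR-124 is the classic miRNA of differentiated neurons and holds down transcripts of non-neuronal cells. miR-9 is made in neural progenitors and neurons, and both of its arms are known to be functional, with the repressor REST and its partner CoREST among their targets.

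The sequences are shown because the array reads each arm of miR-9 separately. Both arms matched RefSeq entries (GRCm38.p6), under the present names miR-9-5p for miR-9 and miR-9-3p for miR-9*, and bases 2 to 8, the seed that pairs with target transcripts, are in capitals.
mmu-miR-9-5p: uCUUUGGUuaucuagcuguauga
mmu-miR-9-3p: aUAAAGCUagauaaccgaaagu
The 5p arm has 23 bases and the 3p arm 22, and each seed belonged to 1 of the 1679 mature mouse names in that table. The arms of miR-9 therefore share no seed with each other or with another listed miRNA. RefSeq also lists miR-9b, read from the opposite DNA strand of the same loci, for which the array held 0 names.
mmu-miR-9b-5p: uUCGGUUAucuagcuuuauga
mmu-miR-9b-3p: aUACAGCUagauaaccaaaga
In the best ungapped alignment miR-9-5p and miR-9b-5p match at 19 bases, and miR-9-3p and miR-9b-3p at 17. Signal from miR-9b on the miR-9 probes could not be told apart from miR-9 here.

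The same 2 mature arms lie in 3 hairpins from different chromosomes, shown with both arms in capitals, so the array gives 1 value for the sum of the 3 genes. The hairpins are given on the plus strand of GRCm38.p6, at chr3:88215598-88215686 for Mir9-1, chr13:83738814-83738885 for Mir9-2 and chr7:79505264-79505353 for Mir9-3.
Mir9-1: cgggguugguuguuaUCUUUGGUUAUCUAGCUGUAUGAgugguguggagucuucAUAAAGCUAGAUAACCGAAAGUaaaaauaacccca
Mir9-2: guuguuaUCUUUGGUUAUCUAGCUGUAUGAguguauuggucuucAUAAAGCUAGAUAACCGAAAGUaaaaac
Mir9-3: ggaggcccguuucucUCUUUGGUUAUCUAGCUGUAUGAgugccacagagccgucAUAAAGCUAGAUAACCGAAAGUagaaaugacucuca
Each hairpin lies inside a long non-coding RNA gene, Gm3764 for Mir9-1, C130071C03Rik for Mir9-2 and Mir9-3hg for Mir9-3. The flanks and the loops differ between the 3 genes, while the arms are identical. miR-124 likewise has 3 genes in RefSeq, Mir124a-1, Mir124a-2 and Mir124a-3.

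Each member had 2 probes of 10 spots each on every array, and the brighter one was used. Every signal below is a percent of a scale value set for its array, the 75th percentile of 265 probes detected throughout the series. miR-9, miR-9* and miR-124 rose well above background on each of the 9 arrays. miR-124* was so on 1 of 9, control replicate 3, and is described separately. The arrays were spread over 2 slides that were read with different versions of the scanner software. Slide 1 held control replicates 1 and 2, NMDA replicates 1 and 2 and bicuculline replicate 1, and slide 2 held the other 4 arrays. Levels of different probes cannot be set against each other on such arrays, so each member is compared across groups and not with the other members. Neither could fewer cells of a type be told apart from less of a miRNA per cell.

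The labelled cell type held in the marker miRNAs. All 5 neuronal markers (miR-124, miR-128, miR-137, miR-138 and miR-218) were well above background on all 9 arrays, and their summed signal was 2410 to 2599% of the scale in control, 2452 to 2540% with NMDA and 2409 to 2504% with bicuculline. The glial markers miR-21, miR-23a and miR-27a were well above background on all arrays too, with sums of 295 to 326%, 307 to 310% and 296 to 352% in the same order, and these miRNAs are not made by glia alone. Of the 2 oligodendrocyte markers miR-338-3p was detected on all arrays and miR-219 on none, with sums of 31.5 to 42.2%, 30.5 to 41.8% and 30.6 to 35.0%. Of 5 microglia and blood markers 4 were on no array well above background (miR-142-3p, miR-142-5p, miR-223 and miR-451), and miR-146a was on 8 arrays, for sums of 12.1 to 15.1%, 11.5 to 15.9% and 10.7 to 15.1%. Of 6 muscle, vessel and liver markers, miR-1 alone was detected, with sums of 15.7 to 18.4%, 17.4 to 19.2% and 14.5 to 17.3%. The ranges of the first 4 lists overlapped between all groups. Those of the muscle, vessel and liver list did not overlap between NMDA and bicuculline, and its part in the results below was not tested.

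None of the 3 readily measured strands passed the test in any comparison. miR-124 was nearly the same in the 3 groups, miR-9* varied by less than its replicate spread, and miR-9 had its highest mean in control and its lowest with bicuculline, with overlapping arrays. The background rates were 8.29% of 181 miRNAs called for NMDA against control, 0.621% of 161 for bicuculline against control and 8.84% of 181 for NMDA against bicuculline, by limma with a Benjamini-Hochberg adjusted p under 0.05. Of the 3 measured strands, 0 were called in each of these comparisons.

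miR-124, the neuronal strand, had signals of 915, 929 and 950% in control, 975, 943 and 886% with NMDA and 903, 1039 and 865% with bicuculline. The 3 groups overlapped, and bicuculline replicates 2 and 3 were the highest and the lowest of the 9 arrays. The means were 931% ± 17.4 (SD, n = 3), 935% ± 45.2 and 936% ± 91.4, so the groups agreed more closely than their arrays did. By limma the NMDA level was 1.00-fold that of control, with a 95% interval of 0.885 to 1.14 and an adjusted p of 0.993. For bicuculline against control the fold was 1.00 with an interval of 0.858 to 1.17 (limma adjusted p = 0.999), and for NMDA against bicuculline it was 1.00 with 0.854 to 1.17 (0.993). Larger changes of miR-124 than these intervals hold were therefore not measured on this scaling.

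**Figure D1:**
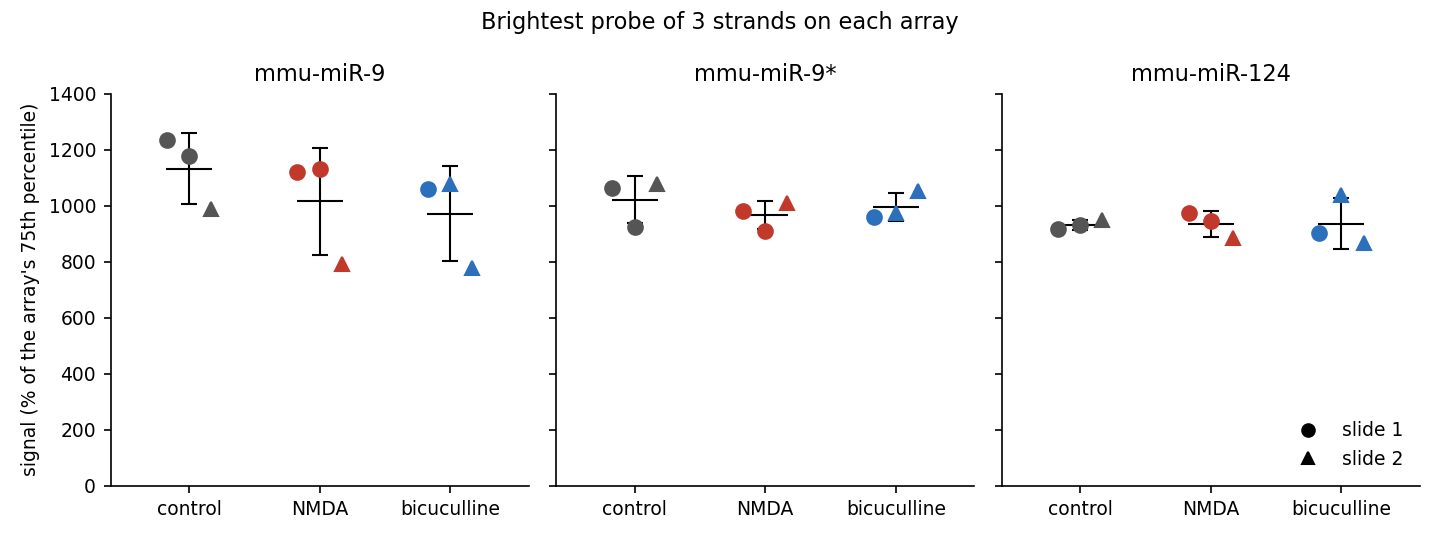
Signal of the brightest probe of miR-9, miR-9* and miR-124 on each of the 9 arrays, as a percent of the array's 75th percentile. Points are arrays (circles slide 1, triangles slide 2), and black bars show the mean and SD of 3 arrays. The groups overlap for every strand, and for miR-9 the lowest arrays, NMDA replicate 3 at 792% and bicuculline replicate 3 at 776%, are both triangles.

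miR-9, the 5p arm, read 1233, 1175 and 988% in control, 1119, 1132 and 792% with NMDA and 1059, 1077 and 776% with bicuculline. The third replicate was the lowest of its group in all 3 groups, and the groups overlapped because of it. The means were 1132% ± 128 (SD, n = 3) in control, 1014% ± 193 with NMDA and 971% ± 169 with bicuculline. On the log2 scale NMDA lay 0.17 below control (log2 difference -0.17 ± 0.16 SE, limma adjusted p = 0.991), and the interval of the fold reached from 0.686 to 1.15. Bicuculline lay 0.23 below (log2 difference -0.23 ± 0.15 SE, limma adjusted p = 0.999; fold 0.852, interval 0.670 to 1.08). NMDA and bicuculline differed by 0.06 ± 0.19 SE (limma adjusted p = 0.990; fold interval 0.770 to 1.41), with the wide intervals of miR-9 set by the spread inside each group. Between arrays of the same replicate number, NMDA was below control by log2 differences of -0.14, -0.05 and -0.32, and bicuculline by -0.22, -0.13 and -0.35. The direction was therefore the same in all 3 numbers for both treatments, but with the number as a block the adjusted p was 0.294 for NMDA and 0.718 for bicuculline (limma). The difference from control was -0.0017 without NMDA replicate 3 and -0.08 without bicuculline replicate 3. Both fits leave control replicate 3, the lowest control array, in the other group, so they do not show the part of 1 array alone.

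miR-9*, the 3p arm of the same hairpins, read 1063, 925 and 1076% in control, 981, 909 and 1008% with NMDA and 960, 974 and 1051% with bicuculline. Here the third replicate was the highest of its group in each group, unlike in miR-9. The means were 1021% ± 83.8 (SD, n = 3), 966% ± 51.4 and 995% ± 48.8. By limma the fold of NMDA over control was 0.947 with an interval of 0.815 to 1.10 (adjusted p = 0.991), that of bicuculline over control 0.976 with 0.836 to 1.14 (0.999), and that of NMDA over bicuculline 0.971 with 0.847 to 1.11 (0.990). For NMDA against control miR-9* lay lower in all 3 replicate numbers as well, by log2 differences of -0.12, -0.02 and -0.09, with an adjusted p of 0.440 under the block (limma).

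Scaling each array to the percentile of all its probes instead moved the NMDA arrays as a whole, with a median log2 difference over all tested miRNAs of -0.43 against control and -0.47 against bicuculline. On that scaling miR-124 and miR-9* lay lower with NMDA than with bicuculline by log2 differences of -0.48 and -0.52 (limma adjusted p = 0.0119 and 0.0101), among 143 miRNAs called. Relative to the median miRNA these were shifts of the same size as the whole array's.

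**Figure D2:**
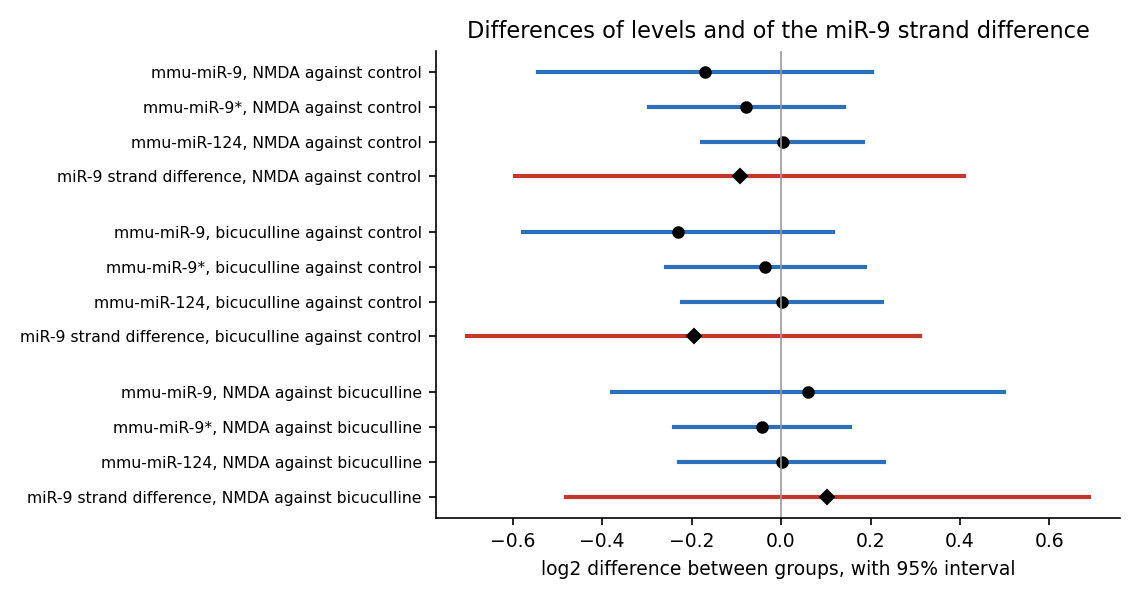
Log2 difference between groups with its 95% interval from limma, for the levels of miR-9, miR-9* and miR-124 (circles, blue) and for the strand difference of miR-9 (diamonds, red). Every interval holds 0; the narrowest is that of miR-124 for NMDA against control, from -0.18 to 0.18.

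The strand difference is the log2 signal of the main strand minus that of its star strand on the same array, in which the scaling of the array cancels. Its absolute size depends on the probes, so that changes between groups alone are read. For miR-9 minus miR-9* it was 0.21, 0.35 and -0.12 in control, 0.19, 0.32 and -0.35 with NMDA and 0.14, 0.15 and -0.44 with bicuculline. The third replicate was below 0 in every group and the other 6 arrays were above it. Bicuculline lay below control by 0.20 (log2 difference -0.20 ± 0.21 SE, 95% interval -0.70 to 0.31), with a limma adjusted p of 0.851. NMDA differed from control by -0.09 ± 0.21 SE (interval -0.59 to 0.41; limma adjusted p = 0.784) and from bicuculline by 0.10 ± 0.24 SE (-0.48 to 0.69; 0.752). An exact permutation test of these 3 arrays against 3, which cannot give a p below 0.1, gave two-sided values of 0.6, 0.5 and 0.5 in the order NMDA against control, bicuculline against control and NMDA against bicuculline. Without NMDA replicate 3 the difference from control turned to 0.11, and without bicuculline replicate 3 it was -0.0022. Both leave a low control replicate 3 in the other group. Between arrays of the same number, NMDA minus control was -0.02, -0.03 and -0.22, bicuculline minus control -0.07, -0.20 and -0.31, and NMDA minus bicuculline 0.05, 0.17 and 0.09. With the brightest probes each comparison thus had 1 sign in all 3 numbers, and the share of other pairs with 1 sign is not given here. With the number as a block the limma adjusted p was 0.411, 0.587 and 0.610 in that order, so that no difference passed the test with or without it. With the second probes the signs were mixed for NMDA minus control (-0.09, 0.03 and -0.25) and NMDA minus bicuculline (-0.01, 0.42 and 0.30). Bicuculline minus control stayed below 0 (-0.08, -0.39 and -0.56).

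Across strand pairs, 0.0% of 21 pairs were called for NMDA against control, 0.0% of 18 for bicuculline against control and 0.0% of 21 for NMDA against bicuculline, by limma, with 1 pair at an unadjusted p under 0.05 in each. By the size of its change miR-9 ranked 14 of 21, 2 of 18 and 15 of 21. The median change over the pairs was 0.05, -0.02 and 0.07 on the log2 scale. In bicuculline against control the change of miR-9 was the most negative of the 18, and that of the miR-139 pair, at 0.54, the most positive. Bicuculline had more arrays on slide 2 than control. With slide as a block the miR-9 change was -0.08, against -0.20 without it.

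**Figure D3:**
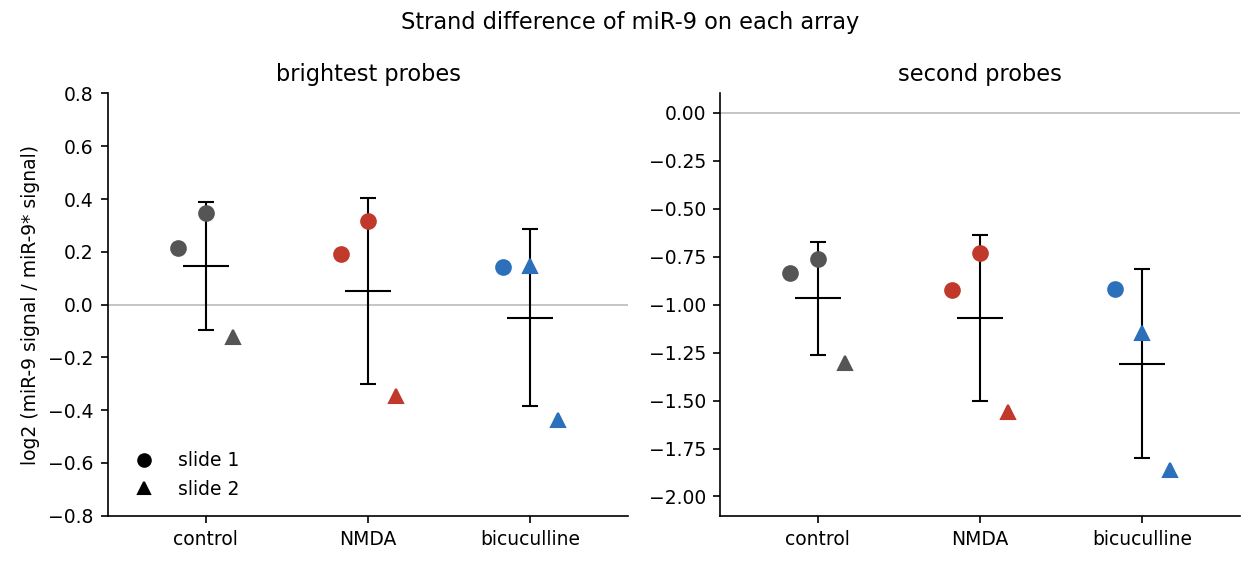
Log2 of the miR-9 signal over the miR-9* signal on each array, for the brightest probes (left) and the second probes (right, on its own axis). Points are arrays (circles slide 1, triangles slide 2), and black bars are the mean and SD of 3 arrays. On the left the third replicates lie at -0.12, -0.35 and -0.44 and the other arrays between 0.14 and 0.35.

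The mean level of miR-9 was lower on slide 2. With the groups as a term over all 9 arrays, a fit added after seeing the data, miR-9 was lower on slide 2 by a log2 difference of -0.33 ± 0.10 SE (fold 0.793, limma adjusted p = 0.0419). In the same fit 41 of 156 miRNAs were called, 17 lower on slide 2 (10.9% of the 156) and 24 higher, so a slide call was common. The mean was 1144% ± 64.8 (SD, n = 5) on slide 1 and 908% ± 148 (n = 4) on slide 2. The slides overlapped, as bicuculline replicate 2 on slide 2, at 1077%, lay within the slide 1 range of 1059 to 1233%. miR-9* differed by 0.10 ± 0.06 SE in the other direction (limma adjusted p = 0.265) and miR-124 by 0.00 ± 0.07 SE (0.998), and neither was called. The strand difference of miR-9 was accordingly lower on slide 2, by -0.43 ± 0.13 SE (limma adjusted p = 0.0400). Of 18 pairs 4 were called, 2 of them higher on slide 2. The share of pairs called lower on slide 2 was 11.1% of 18, of which the other was the miR-376a pair.

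The second, dimmer probe of miR-9 showed the slide difference too. It read 465, 420 and 319% in control, 398, 423 and 257% with NMDA and 378, 343 and 224% with bicuculline. The 5 slide 1 arrays (378 to 465%) and the 4 slide 2 arrays (224 to 343%) did not overlap. The share of all probes that separate by slide in this way is not given here, and slide calls were common, at 41 of 156 miRNAs in the fit with the members' second probes. With the second probes the slide difference was -0.53 ± 0.12 SE for miR-9 (limma adjusted p = 0.0192) and -0.61 ± 0.14 SE for the strand difference (0.0124). For miR-9* the second probe differed by 0.08 ± 0.06 SE (0.357), and for miR-124 by -0.26 ± 0.10 SE (0.0854), against 0.00 from its brightest probe.

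Slide, scanner software and replicate number largely coincide. The replicates numbered 1 were all on slide 1 and those numbered 3 all on slide 2. Those numbered 2 were split, with bicuculline replicate 2 on slide 2. Its brightest miR-9 probe read within the slide 1 range (1077%) and its second probe below that range (343%). From this 1 array, slide, software and number cannot be told apart. Within slide 1, NMDA minus control was -0.10 for the level of miR-9 and -0.03 for its strand difference, and within slide 2, with 1 array each, the values were -0.32 and -0.22. Bicuculline minus control was -0.18 and -0.14 within slide 1, and -0.11 and -0.02 within slide 2. All 8 values were below 0, and no test was made on so few arrays. They come from the arrays that make up the pooled differences, share the control arrays, and hold the miR-9 level in both measures. Their shared sign is therefore not independent of the pooled differences. For NMDA minus bicuculline the signs differed between the slides, with 0.09 for the level and 0.11 for the strand difference on slide 1, against -0.21 and -0.20 on slide 2.

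The spots behind the low miR-9 arrays were uneven. The coefficient of variation over the spots of the brightest miR-9 probe was 43.2% on NMDA replicate 3 and 38.1% on bicuculline replicate 3, against 2.03 to 9.07% on the other 7 arrays. Among probes with a signal above 200 units, 1 of 162 on NMDA replicate 3 and 1 of 115 on bicuculline replicate 3 had a higher value, and the median was 8.55% and 10.4%. On NMDA replicate 3 the 10 spots ran from 94.3 to 1253% of the scale, and on bicuculline replicate 3 from 223 to 1183%. These values leave out flagged spots, and low spots were flagged on other slide 2 arrays. They read 373% (row 108) and 648% (row 160) on control replicate 3 and 421% (row 157) on bicuculline replicate 2. The evenness of those 2 arrays therefore depends in part on the flags. The second miR-9 probe was also uneven, at 38.3% on NMDA replicate 3, 35.7% on bicuculline replicate 2 and 21.3% on bicuculline replicate 3. The brightest miR-9* probe had 5.62 to 11.3% on the 9 arrays.

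Among unflagged spots, the only ones used here, the uneven signal of the brightest probe on NMDA replicate 3 and bicuculline replicate 3 ran with the position of the spot. On control replicate 3 the lowest flagged spot, at 373%, lay in an upper row (108). The 3 spots of the brightest probe in rows 51 to 112 averaged, per array, 1016 to 1167% on slide 2 and 1058 to 1246% on slide 1, with means of 1105% and 1137%. The 7 spots in rows 148 to 181 averaged 632 to 1036% on slide 2 and 1056 to 1226% on slide 1. On NMDA replicate 3 the lower rows had 0.541 of the signal of the upper rows and on bicuculline replicate 3 0.600, against 0.893 to 1.08 on the other 7 arrays. The division into upper and lower rows was made after seeing the values and is a description of these spots. The second probe followed it on NMDA replicate 3, where the lower rows had 0.684 of the signal of the upper rows, but not on bicuculline replicate 3 (1.19) or control replicate 3 (1.26). Over the arrays of a slide, its upper and lower spots both averaged less on slide 2 (289 and 286%) than on slide 1 (416 and 417%). The part of spot position in the miR-9 differences was not tested.

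**Figure D4:**
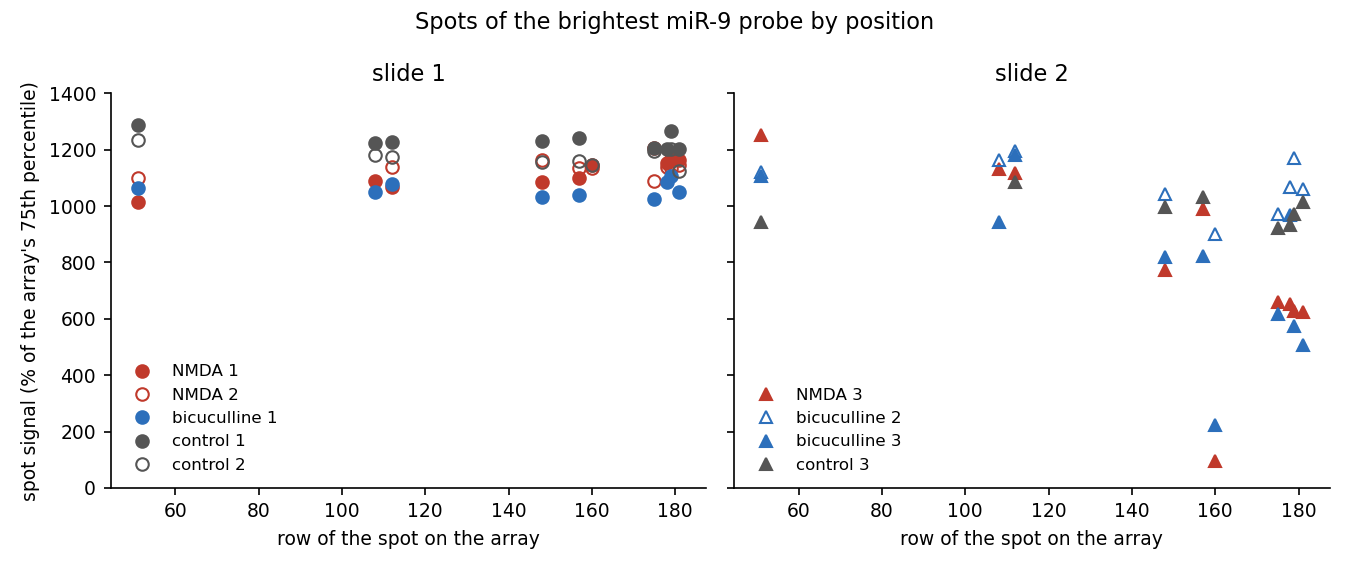
Signal of each unflagged spot of the brightest miR-9 probe, as a percent of the array's 75th percentile, against the row of the spot on the array, for the arrays of slide 1 (left) and slide 2 (right); open symbols are replicates numbered 2. On slide 1 the spots stay between 1016 and 1287%, while on slide 2 spots of NMDA replicate 3 and bicuculline replicate 3 in the lower rows drop to as little as 94.3% and 223%.

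miR-124*, the strand of the miR-124 duplex that is usually lost, was near the limit of detection. Its brightest probe read 6.03, 8.06 and 6.29% of the scale in control, 3.79, 3.07 and 2.42% with NMDA and 3.88, 4.50 and 5.19% with bicuculline, before any floor. Every control array lay above every treated array, and every bicuculline array above every NMDA array. The median negative-control spot lay between -0.37 and 1.06% of the scale over the 9 arrays, with group means of 0.575% in control, 0.116% with NMDA and 0.230% with bicuculline. The order of the groups in the controls for background was thus the same as in miR-124*, though the differences were smaller, and the part of background in the miR-124* difference was not tested. In raw units the probe read 14.3 to 51.3 over the 9 arrays.

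The second probe of miR-124* gave 3.47, 4.93 and 3.74% in control, 1.08, 2.08 and 1.25% with NMDA and 1.96, 2.64 and 2.53% with bicuculline. Control again lay above both treated groups without overlap, while NMDA replicate 2 and bicuculline replicate 1 overlapped. Group means of the brightest probe were 6.79% ± 1.10 (SD, n = 3) in control, 3.10% ± 0.683 with NMDA and 4.52% ± 0.656 with bicuculline. Differences from control were -3.70 with NMDA and -2.27 with bicuculline in percent of the scale, and -1.43 between NMDA and bicuculline, each with a two-sided exact permutation p of 0.1, the smallest that 3 arrays against 3 can give, and 0.188 after adjustment over the 15 such tests made. With the second probe the differences were -2.58, -1.67 and -0.91 (exact permutation p = 0.1, 0.1 and 0.2). Over all 650 miRNAs the first group lay wholly below the second in 4.0% for NMDA against control, 3.38% for bicuculline against control and 1.85% for NMDA against bicuculline.

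**Figure D5:**
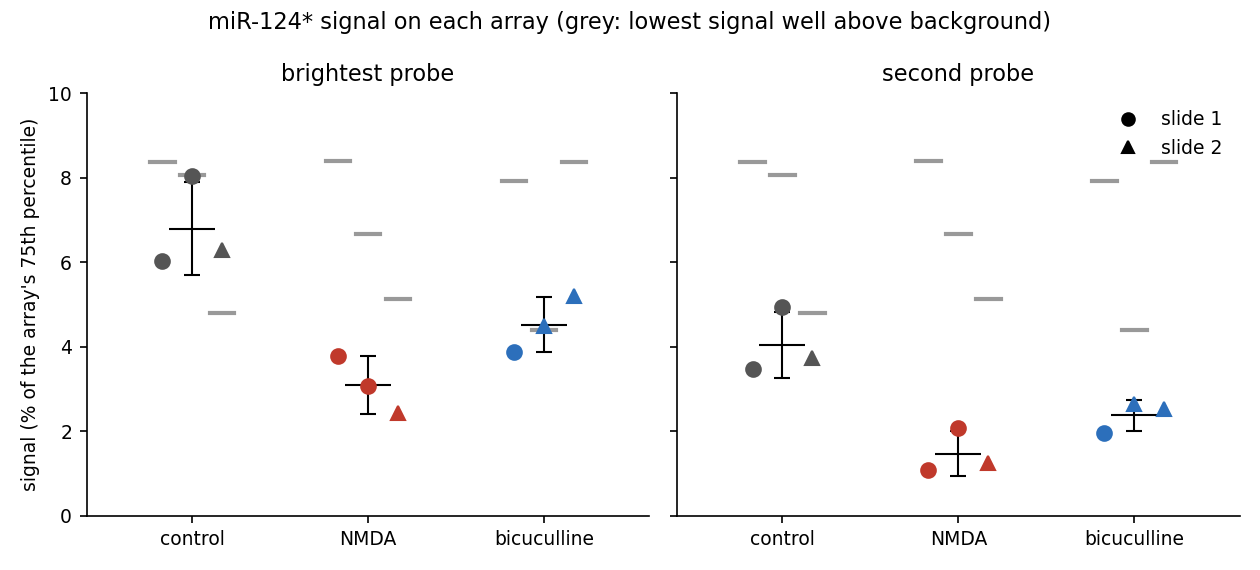
Signal of both probes of miR-124* on each array before any floor, as a percent of the array's 75th percentile. Points are arrays (circles slide 1, triangles slide 2), black bars are the mean and SD of 3 arrays, and grey dashes mark the lowest signal of any probe well above background on that array. The control arrays (6.03 to 8.06% for the brightest probe) lie above the NMDA arrays (2.42 to 3.79%), and most points lie below their grey dash.

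Well above background on 1 control array and on no treated array, miR-124* is given no fold. It did not pass the filter in any group and was therefore not among the miRNAs of the main limma fits. Because every control array lay above every treated array, its signal had to be lower with treatment within both slides, and the values below give the sizes only. NMDA minus control was -3.61% of the scale on slide 1 and -3.86% on slide 2, and bicuculline minus control -3.17% and -1.44%. NMDA minus bicuculline was -0.45% on slide 1 and -2.42% on slide 2. Unlike miR-9, the probe had a similar mean on both slides, 4.97% ± 2.05 (SD, n = 5) and 4.60% ± 1.63 (n = 4).

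The log2 values that the authors deposited, whose treatment of low signals is not given in the sources used here, were also read for miR-124*. They were 7.42, 7.42 and 7.41 in control, 7.18, 7.21 and 7.21 with NMDA and 7.28, 7.33 and 7.30 with bicuculline, in a table whose values ran from 6.80 to 12.96 with a median of 7.07. The 3 groups did not overlap, and the share of all miRNAs that separate in this way in that table is not given here. NMDA minus control was -0.22 ± 0.03 SE on this scale (limma over all 645 matched miRNAs with no filter, adjusted p = 0.00497). In that fit 4.03% of the miRNAs were called in either direction, and 0.31% were called lower. Bicuculline minus control was -0.11 ± 0.03 SE (limma adjusted p = 1.0) and NMDA minus bicuculline -0.10 ± 0.03 SE (0.131). With normexp background correction and no filter NMDA minus control was -0.30 (limma adjusted p = 0.0900).

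For the ratio of miR-124 over miR-124* on an array, most star signals give a bound only. With the star signal at the higher of its own value and the lowest signal well above background on that array, the ratio was at least 109 and 115 on control replicates 1 and 2 and 151 on control replicate 3, where both strands were detected. It was at least 116, 141 and 172 with NMDA and at least 114, 231 and 103 with bicuculline. These values overlapped between all groups. Most are bounds set by the array's lowest detected signal, so their overlap cannot decide whether the strand balance of miR-124 differed. Before any floor, the log2 ratios of the signals of the brightest probes were 7.24, 6.85 and 7.24 in control, 8.01, 8.26 and 8.51 with NMDA and 7.86, 7.85 and 7.38 with bicuculline. They did not overlap between the groups, with a two-sided exact permutation p of 0.1 in each comparison. The share of other strand pairs without overlap is not given here. With the second probes, control at 4.79 to 5.32 lay below NMDA at 6.02 to 7.04 (exact permutation p = 0.1), while bicuculline at 5.31 to 6.04 overlapped with both (0.2 and 0.2). These log2 ratios describe star signals that are mostly not well above background and give no fold of the miRNA.

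Other neuron-enriched miRNAs were compared with the members from a list of 11, of which 10 passed the filter in every comparison and miR-134 did not. In NMDA against control 0 of 10 were called, with a median log2 difference of -0.02, against -0.01 over all 181 miRNAs. In bicuculline against control 1 of 10 rose, miR-212, whose gene is driven by CREB after synaptic activity, by a log2 difference of 1.98 ± 0.29 SE (limma adjusted p = 0.0228). Leaving out bicuculline replicate 1 or 2 ended this call, with log2 differences of 2.04 and 2.03 (limma adjusted p = 0.0730 and 0.0988). Its partner from the same transcript, miR-132, had 0.64 ± 0.17 SE (limma adjusted p = 0.386). The list's median was -0.03 against -0.02 over all 161. In NMDA against bicuculline miR-212 was lower by -1.68 ± 0.16 SE (limma adjusted p = 0.000275), with a list median of 0.01 against 0.00 over all.

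Of the 113 other star strands on the array, 14 passed the filter for NMDA against control, 12 for bicuculline against control and 14 for NMDA against bicuculline, and 0 were called in any of them, with 0 at an unadjusted p under 0.05. Their median log2 differences were -0.04, 0.00 and -0.02. The difference of miR-9* lay inside their range of -0.18 to 0.14 for NMDA against control.

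Over the 9 arrays, the miRNAs whose log2 levels ran most like those of a member were sought among 153 others well above background on all arrays. For miR-9 they were miR-135a (Pearson's r = 0.92), miR-326 (0.88) and miR-138 (0.87). For miR-9* they were miR-379 (0.94), miR-185 (0.91) and miR-676 (0.90), and for miR-124 miR-341 (0.83), miR-27a (0.80) and miR-497 (0.77). The 2 arms of miR-9 had r = -0.40 with each other, and miR-9 with miR-124 0.54. These values describe 9 arrays that share 2 slides and 1 scaling each, and no p is attached.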

How the data were processed

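Total RNA from 9 cultures was labelled with Cy3 and hybridised to one-colour Agilent miRNA arrays. For each array the authors deposited the spot intensity values as Agilent Feature Extraction wrote them (10.7.1.1 for slide 1, 10.7.3.1 for slide 2), background-subtracted but not brought to a common scale. They also deposited a table of processed log2 values, whose scaling is not given in the sources used here. In the labels the NMDA treatment is 20 µM for 4 h, while the study's text also names a higher concentration and its methods a shorter exposure with glycine followed by washing, so the dose and the exposure of these cultures are not settled beyond the labels. The study's legends give 3 independent experiments, though the labels do not say what a replicate shares.

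Flagged spots (3278 in all) were dropped and the remaining spots of each probe averaged. The scanner's mark on 50% or more of these spots made a probe well above background. Each array was scaled by the 75th percentile of 265 probes, values under 7.94% of it were raised to that floor, and logarithms to base 2 were taken. Among the 650 miRNAs, those well above background on all 3 arrays of a group were tested with limma 3.58.1 in R 4.3.3, 2 groups at a time, two-sided, with Benjamini-Hochberg adjustment and a threshold of 0.05. In strand differences, limma was fitted to all pairs of which both strands passed this filter. Exact permutation tests used scipy 1.17.1. The limma fit was also run on simulated data with known changes. The count of saturated spots was 0, and precision is limited by having few arrays. The brightness of array spots carries no read depth.

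The members, the lists of markers, neuron-enriched miRNAs and star strands, and the rule for other names (the miRNAs most correlated with a member, and those called within a list) were chosen with earlier results of these data known. To see whether arrays with one replicate number belong together, the deviations from the group means were correlated over 156 miRNAs. Arrays of the same number on 1 slide correlated at 0.36 to 0.76 over 7 pairs, which include every NMDA and control pair. Arrays of different number on 1 slide had -0.10 to 0.45 over 6 pairs, so the ranges overlapped and the part of the slide is not separated. NMDA and control were taken as paired on these values, which do not settle it, and their main limma tests and intervals leave the pairing out. The fit with the replicate number as a block is given as an alternative. For miR-124 in NMDA against control that fit gave a limma adjusted p of 0.971. The 2 pairs on different slides, both with bicuculline replicate 2, had -0.03 and 0.08, and bicuculline was not taken as paired. Alternatives were other scalings, summaries of probes, filters, floors and blocks, the authors' table, the methods' t-test and leaving out each array. The gene symbols of miR-9 and miR-124 come from the GRCm38.p6 table, whose build differs from the one that the array headers name.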

Additional observations from a re-analysis of the deposited data

How the results depend on the processing

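No level of miR-9, miR-9* or miR-124 and no strand difference of miR-9 passed the adjusted threshold under any alternative, except that scaling to all probes called miR-9* and miR-124 in NMDA against bicuculline. The differences are small, and several changed sign, in log2 units and for reasons that were not tested unless the alternative itself shows them. In NMDA against bicuculline miR-9 was -0.42 with scaling to all probes, -0.028 with scaling to the median, -0.0011 with the median over spots, -0.060 with slide as a block and -0.11 with the total gene signal. miR-9* was -0.52 with scaling to all probes and 0.17 with no scaling, and miR-124 was -0.48 with all probes, -0.086 with the median scale, -0.10 with quantile normalization, -0.014 with the median over spots, -0.0054 with slide as a block and -0.20 with the total gene signal. The strand difference of miR-9 was -0.045 with slide as a block. In NMDA against control miR-124 was -0.42 with all probes, -0.033 with the median scale, -0.0083 with the mean of all probes, -0.0083 with the median over spots, -0.021 with the second probe, -0.072 with the total gene signal and -0.10 within slide 2. In bicuculline against control miR-9* was 0.020 with all probes, 0.016 with the median scale, 0.022 with quantile normalization and 0.10 with the total gene signal, and miR-124 was -0.15 with no scaling, -0.041 with the mean of all probes, -0.030 in the authors' table, -0.084 with the second probe and -0.017 with slide as a block.

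Leaving out 1 array at a time, in the order NMDA against control, bicuculline against control and NMDA against bicuculline, gave -0.27 to -0.0017, -0.33 to -0.077 and -0.093 to 0.23 for miR-9. It gave -0.15 to -0.035, -0.11 to 0.0041 and -0.074 to 0.00058 for miR-9*, and -0.027 to 0.042, -0.076 to 0.056 and -0.052 to 0.080 for miR-124. The strand difference of miR-9 ran from -0.23 to 0.11, -0.33 to -0.0022 and -0.090 to 0.30. That of miR-124 ran from 1.02 to 1.28, 0.46 to 0.75 and 0.40 to 0.69, and the signal difference of miR-124* from -4.08 to -3.07, -2.65 to -1.64 and -1.77 to -1.09% of the scale.

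The miR-124* signal kept its direction in every alternative that gave one, and the authors' table with no filter called it for NMDA against control at a log2 difference of -0.22. Within slides and with 1 array left out the direction was fixed beforehand, because the arrays of the groups did not overlap. In NMDA against bicuculline it was -0.45% of the scale within slide 1 and -2.42% within slide 2, and the strand difference of miR-124 was 0.27 and 0.90. The total gene signal, other scalings of its floored level, the slide block and the lower floor were not run for miR-124*, which the filter leaves out. With the replicate number as a block the log2 differences are the same as without it, no member was called, and the exact sign permutation for miR-124* gave 0.25, the smallest that 3 pairs allow.

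The number of miRNAs called, 15, 1 and 16 in the same order, became 27, 0 and 28 with quantile normalization, 143 in the last comparison with scaling to all probes, 3, 0 and 3 with the filter on all arrays, 5, 0 and 8 with no filter, and 0, 0 and 0 with the total gene signal. The methods' t-test gave 0 and 10 in the last 2, and normexp and the replicate block each gave 2 for bicuculline against control. Strand pairs called stayed at 0 except with no filter, which called 2 in NMDA against control and 2 in NMDA against bicuculline, neither of them miR-9 or miR-124, and whose fit is unreliable because floored values have no variance.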

Other observations

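The scanner software also writes a total signal for each miRNA, the sum of its probes. On slide 1 this column was at odds with the probes for 44 to 53 miRNAs per array, whose total exceeded 100 units and 1.5 times the sum of their own probe signals, against 0 on each array of slide 2. miR-124* was among them. Its total was 4102 on control replicate 1 and 4526 on control replicate 2, while the sum of its own 2 probes was 36.8 and 54.8, and the total of miR-124 on the same arrays was 4079 and 4492. On control replicate 3, on slide 2, the total of miR-124* was 33.9, equal to its probe sum. On the NMDA arrays and on bicuculline replicates 1 and 3 the total of miR-124* was listed as 0.1, and on bicuculline replicate 2 as 18.0. Read from this column, miR-124* would be higher in 2 of 3 control arrays by the signal of another miRNA. The totals of miR-124 equalled its probe sums within 0.01 units on all 9 arrays.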
